A study of Mus musculus with 12 samples.

Results

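The Hox genes of the mouse lie in 4 clusters, Hoxa on chromosome 6, Hoxb on chromosome 11, Hoxc on chromosome 15 and Hoxd on chromosome 2. The members described here were the genes whose symbol is Hox, a cluster letter from a to d and a number, taken from probe sets annotated to that gene alone. Of 39 such genes in the RefSeq gene table, 33 were measured, by 48 probe sets, out of 18193 genes on the array. For the 11 genes with several probe sets, the one with the highest mean signal over all arrays stood for the gene. The other 6 had no probe set of their own and were not analysed here. The 33 genes comprised 9 of Hoxa, 9 of Hoxb, 7 of Hoxc and 8 of Hoxd. By paralogue number, 10 belonged to groups 1 to 4 (anterior), 9 to groups 5 to 8 (central) and 14 to groups 9 to 13 (posterior).

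RNA from 12 mouse cultures in 7 groups was hybridised to Affymetrix microarrays, and the series title speaks of neural stem cells obtained by direct induction. Neurospheres are clusters of neural stem cells and their progeny grown in suspension, here in a medium named MHM. They came from the ganglionic eminence (GE), a ventral forebrain germinal zone, at embryonic day 14 (1 array), and from adult and embryonic fibroblasts (2 arrays each). They also came from a line of induced pluripotent stem (iPS) cells, 38C2, and a line of embryonic stem (ES) cells, EB3, as primary and as secondary neurospheres, with 1 array for each line and stage. Adult skin fibroblasts were on 1 array, and the undifferentiated iPS and ES cells on 1 array each. EGF and cAMP were added to adult-derived replicate 1, and LIF, a cytokine, to adult-derived replicate 2. LIF was added to embryonic-derived replicate 3, and both LIF and cAMP to embryonic-derived replicate 4. Apart from the pluripotent lines, the mice were C57BL/6. The labels name no transgene, give no age for the adult and no day for the embryonic fibroblasts, and do not say from which body region either came. Embryonic fibroblasts themselves were not among the samples. The labels do not state that arrays of a group are repeat cultures. The pairs differ in line or medium, and the p-values therefore cover only the spread among the arrays at hand, which may be technical.

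Hox genes encode homeodomain transcription factors that give cells their position along the body axis. Within a cluster, genes at one end (low paralogue numbers) are switched on early and from the hindbrain backwards. Those towards the other end (high numbers) are switched on later and only in more posterior levels of the trunk, the limbs and the genital region. The forebrain lies in front of all Hox expression domains. Fibroblasts from different body sites are known to keep distinct Hox patterns in culture, held by Trithorax and Polycomb chromatin proteins, whereas pluripotent cells keep the clusters repressed. Neural progenitors made from pluripotent cells take on hindbrain or spinal Hox genes when exposed to retinoic acid, and TALE homeodomain proteins (Meis, Pbx, Pknox) bind DNA together with Hox proteins.

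Upstream sequences were available for 19 of the 33 measured genes (21 windows), from RefSeq on GRCm38.p6. The 5 printed belong to genes that stand for the different patterns described in the results, 2 anterior genes of the pluripotent-derived neurospheres (Hoxa2, Hoxb4), 1 gene at no more than 2.2 in the embryonic-derived pair (Hoxc4), 1 detected in both fibroblast-derived pairs (Hoxd8) and 1 detected only in the embryonic-derived pair (Hoxd13). Each is the 250 bases before the annotated start, 5′ to 3′. The windows are chr6:52164832-52165081 on the minus strand, chr11:96318017-96318266 on the plus strand, chr15:103034145-103034394 on the plus strand, chr2:74704365-74704614 on the plus strand and chr2:74667975-74668224 on the plus strand.
Hoxa2: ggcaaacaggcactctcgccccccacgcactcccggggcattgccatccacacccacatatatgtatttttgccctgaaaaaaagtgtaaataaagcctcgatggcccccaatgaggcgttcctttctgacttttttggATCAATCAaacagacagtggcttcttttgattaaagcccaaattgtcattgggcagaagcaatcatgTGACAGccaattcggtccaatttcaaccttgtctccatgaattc
Hoxb4: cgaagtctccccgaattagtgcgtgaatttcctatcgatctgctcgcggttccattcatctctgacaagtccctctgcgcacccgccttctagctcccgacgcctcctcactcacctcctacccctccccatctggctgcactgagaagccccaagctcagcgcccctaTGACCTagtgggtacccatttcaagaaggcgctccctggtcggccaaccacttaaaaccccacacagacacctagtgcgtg
Hoxc4: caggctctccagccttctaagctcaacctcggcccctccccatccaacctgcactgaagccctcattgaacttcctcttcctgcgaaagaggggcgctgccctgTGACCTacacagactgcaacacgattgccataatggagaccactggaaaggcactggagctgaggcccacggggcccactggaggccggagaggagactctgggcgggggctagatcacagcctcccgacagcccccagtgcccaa
Hoxd8: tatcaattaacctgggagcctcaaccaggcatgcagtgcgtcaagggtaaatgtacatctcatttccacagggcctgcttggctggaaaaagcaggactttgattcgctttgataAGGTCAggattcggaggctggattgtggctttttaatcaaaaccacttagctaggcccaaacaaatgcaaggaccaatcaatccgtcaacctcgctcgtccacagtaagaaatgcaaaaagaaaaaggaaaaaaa
Hoxd13: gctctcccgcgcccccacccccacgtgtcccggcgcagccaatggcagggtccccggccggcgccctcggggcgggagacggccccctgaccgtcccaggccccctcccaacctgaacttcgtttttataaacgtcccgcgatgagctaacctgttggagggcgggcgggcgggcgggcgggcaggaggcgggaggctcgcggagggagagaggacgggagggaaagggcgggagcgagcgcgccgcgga
Capitals mark matches to any of 5 motifs on either strand. These were TGATTNAT, a joint Hox and Pbx motif, TGACAG, a TALE motif, AGGTCA, a nuclear receptor half-site of the kind retinoic acid receptors bind, TTTATG, a Cdx motif, and TAATTA, a homeodomain core. In the Hoxa2 window stood 1 match to TGATTNAT, written there on the opposite strand, and 1 to TGACAG. The Hoxb4, Hoxc4 and Hoxd8 windows each had 1 match to AGGTCA, on the opposite strand in Hoxb4 and Hoxc4, and the Hoxd13 window had no match to any of the 5. AGGTCA occurred in 5 of the 21 Hox windows (23.8%) and in 14.02% of all 32851 windows of the same length. TGACAG occurred in 2 of 21 (9.52%) against 15.9%, TGATTNAT in 2 (9.52%) against 2.82%, TTTATG in 3 (14.3%) against 10.8% and TAATTA in 2 (9.52%) against 4.84%. Both windows with TAATTA belong to the same gene, Hoxd11. Hoxd13 had 74.4% G and C and 31 CpG dinucleotides in its window, and Hoxd8 44.4% and 6. The median was 59.2% over the Hox windows and 52.4% over all windows. These matches describe letters in the windows, not sites at which a factor was measured.

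The deposited signals were scaled by the authors to the same trimmed mean, 100, on every array, and a signal of 20 or more is counted here as a detected level. Of the 33 Hox genes, 27 reached it on at least 1 array and entered the tests, and 6 (Hoxa13, Hoxb7, Hoxb13, Hoxd1, Hoxd11 and Hoxd12) did not. The number of arrays, at most 2 in a group, limits the precision. Labels were checked against marker genes. The GE array carried the forebrain genes Lhx2 (282.0) and Six3 (207.5) and the neural stem cell gene Fabp7 (7196.6), and the fibroblast array the collagen gene Col1a2 (8333.9). Dlx1 (0.4), Dlx2 (15.5) and Nkx2-1 (17.7), genes that mark the ganglionic eminences, were below 20 on the GE array. Some arrays carried markers of another cell type. Pou5f1, the pluripotency gene for Oct4, stood between 1787.0 and 2217.8 on the 4 fibroblast-derived arrays and at 1174.1 on the ES-derived primary array, against 9.6 on the iPS-derived primary one. Other pluripotency genes differed between the fibroblast-derived pairs. Nanog read 145.2 and 401.6 in the pair from adult cells, against 1453.7 and 1844.9 in the pair from embryonic cells, Zfp42 5.2 and 79.1 against 346.1 and 475.5, and Esrrb 24.5 and 67.2 against 251.3 and 246.3. The summed signal of 8 fibroblast genes was 22177 in fibroblasts, 4428 on the ES-derived secondary array and 1428 on the iPS-derived secondary one. The adult-derived arrays had 388 and 2958, and the embryonic-derived ones 1724 and 2674. The summed signal of 3 placental genes was 1613 and 787 on the embryonic-derived arrays and between 13 and 35 on all others. In bulk RNA, fewer cells of a type and less RNA per cell cannot be told apart.

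Each culture carried its own set of detected Hox genes. In GE neurospheres 1 of 33 members reached a signal of 20, Hoxc9 at 26.2, beside 58.5% of all genes. With every probe set counted there were 3, since other probe sets of Hoxa5 and Hoxa9 read 38.7 and 24.1. No member did so in the ES cells (52.8% of all genes), where the highest was Hoxd13 at 11.4, although the other probe set of Hoxa5 read 25.1. In the iPS cells 8 did so (55.5%). In adult fibroblasts 19 members were detected (55.8% of all genes). The adult-derived arrays had 19 and 14 detected members (58.3% and 60.1% of all genes), and the embryonic-derived arrays 9 and 10 (61.1% and 61.9%). The iPS- and ES-derived primary arrays had 12 and 14 (56.9% and 60.4%), and the secondary ones 11 and 19 (59.4% and 61%). The share of all genes varied less between arrays than the count of Hox genes did.

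**Figure D1:**
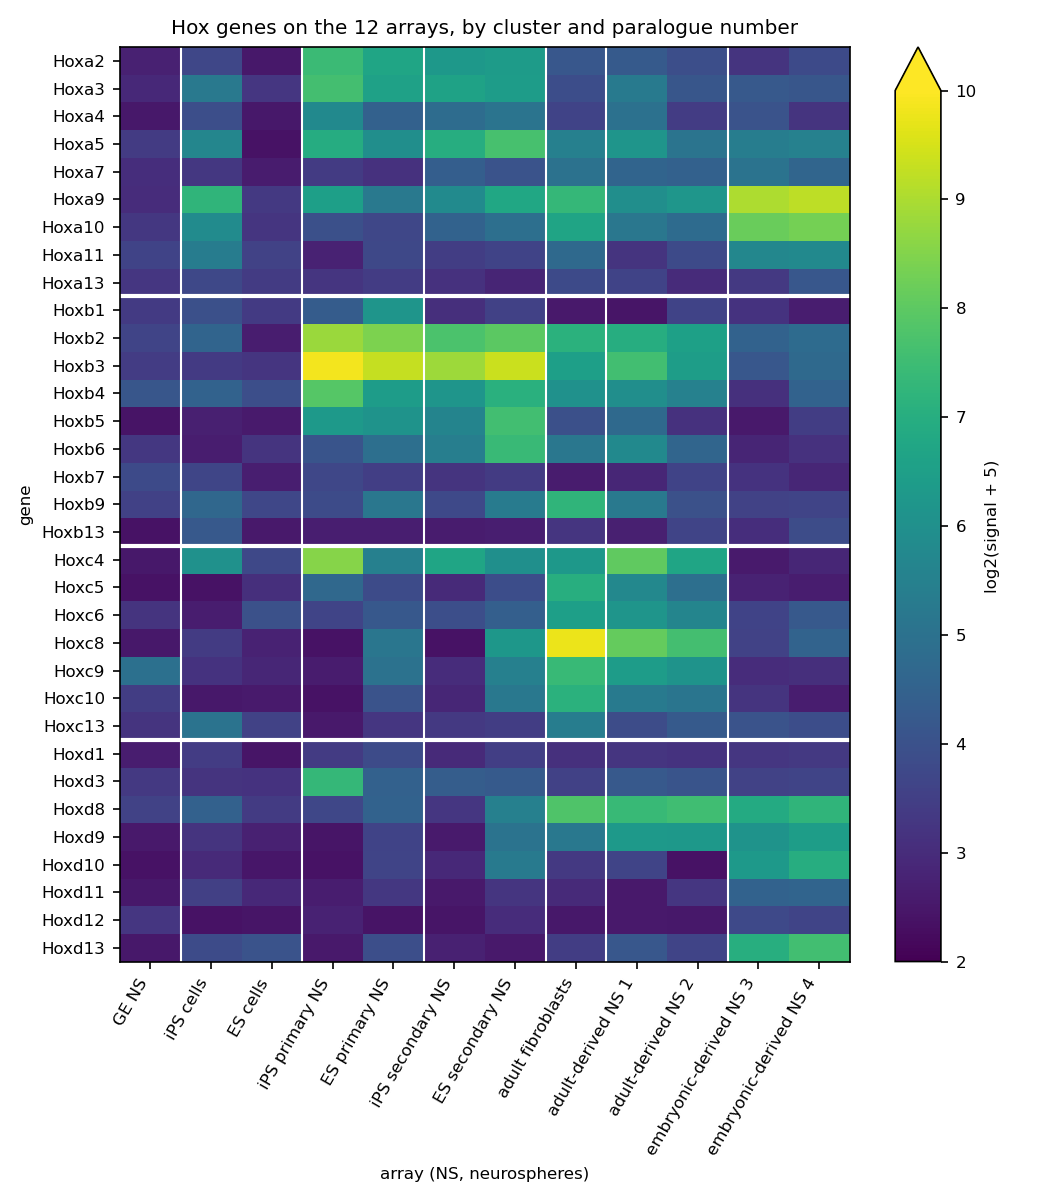
Log2(signal + 5) of the 33 Hox genes (rows, in order of cluster and paralogue number) on the 12 arrays (columns), with white lines between clusters and groups. GE neurospheres and ES cells are dark throughout, with 1 and 0 members at 20 or more; the Hoxc block is bright in adult fibroblasts (all 7 members at 20 or more) and in the adult-derived pair, and Hoxd10 and Hoxd13 in the embryonic-derived pair.

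Adult skin fibroblasts carried all 7 measured Hoxc genes at a signal of 20 or more. Hoxc8, a central gene of thoracic levels, read 873.4, against 5.6 in iPS and 1.8 in ES cells. Hoxc9 read 163.3 (4.0 and 2.2 in iPS and ES cells), Hoxc10 132.7 (0.7 and 1.0), Hoxc5 123.0 (0.2 and 3.4) and Hoxc6 86.4 (1.2 and 10.8). Outside Hoxc, Hoxd8 read 216.3, Hoxb9 146.1, Hoxb2 133.6 and Hoxa9 155.1. The most posterior measured genes of 3 clusters were low, with Hoxa13 at 8.9, Hoxb13 at 4.4 and Hoxd13 at 6.0, whereas Hoxc13 read 36.9. Only Hoxd8 and Hoxd9, of the 8 Hoxd genes measured, were detected.

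Against the iPS and ES cells, 10 of the 27 tested Hox genes were higher in the fibroblasts and none lower, with limma at an adjusted p under 0.05. That is 37.0%, beside 39.1% of all genes called in either direction and 19.6% called higher. Hoxc8 differed by 6.69 ± 1.49 (log2 difference ± SE, adjusted p = 0.0081), Hoxc10 by 4.56 ± 0.94 (0.00583), Hoxc9 by 4.39 ± 1.08 (0.0123) and Hoxc5 by 4.28 ± 0.62 (0.00133). Of the 7 Hoxc genes 5 were called, the fifth being Hoxc6. Hoxb2, Hoxb3, Hoxb9, Hoxa7 and Hoxd8 made up the rest, and Hoxa9, at 155.1 against 145.3 in iPS and 5.1 in ES cells, was not called (adjusted p = 0.238). The fibroblasts were on 1 array, which the model takes to vary like the groups with 2. Because 5 was added to each signal before taking log2, differences of dim genes come out smaller than their true size. Without the iPS cells 15 members were called, a fit to which the shares above do not apply.

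Neurospheres derived from adult fibroblasts shared many of the detected Hox genes of the fibroblasts. Of the 19 members detected in the fibroblasts, 14 were detected on both adult-derived arrays and 6 on both embryonic-derived arrays, among them 6 and 0 of the 7 Hoxc genes. For all 10154 genes detected in the fibroblasts, the shares were higher than for the Hox genes, at 90.6% and 92.8%. The Hoxc genes stood below the fibroblast level with 1 exception. Hoxc8 read 274.1 and 192.4 on adult-derived replicates 1 and 2, or 31.4% and 22.0% of the fibroblast signal. Hoxc9 read 80.0 and 64.3 (49.0% and 39.4%), Hoxc10 34.0 and 29.6 (25.6% and 22.3%), Hoxc6 67.8 and 44.9 (78.5% and 52.0%) and Hoxc5 48.5 and 25.0 (39.4% and 20.3%). The exception was Hoxc4, the most anterior gene of its cluster, at 261.0 and 100 against 72.4 in fibroblasts (360.5% and 138.1%).

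Members of the other clusters lay on both sides of the fibroblast level on the adult-derived arrays. Hoxd8 read 163.0 and 182.1 against 216.3, and Hoxd9, a neighbour of it in the cluster, 74.4 and 71.5 against 31.7. The anterior gene Hoxb2 read 121.2 and 87.9 against 133.6, and Hoxb4 57.5 and 41.0 against 60.8. Hoxb3 read 185.8 and 82.6 against 85.6. The posterior genes Hoxa9 (57.3 and 69.0 against 155.1), Hoxa10 (30.8 and 22.6 against 97.0) and Hoxb9 (32.5 and 10.9 against 146.1) were lower on both arrays than on the fibroblast array. Replicate 1, grown with EGF and cAMP, stood above replicate 2, grown with LIF, in 15 of the 19 genes. The same share over all genes was not counted, and genes of a cluster are not independent. With 1 array per medium, the medium and the array cannot be told apart. The fibroblast gene sum was lower on replicate 1 (388) than on replicate 2 (2958), and its part was not tested.

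None of the 27 tested members was called between the adult-derived neurospheres and the adult fibroblasts, beside 19.6% of all genes, 12.3% higher and 7.25% lower. At an unadjusted p under 0.05 there were 2. Hoxb9 had a log2 difference of -2.63 ± 0.84 (adjusted p = 0.0584) and was called with the iPS or ES line as a replicate block (adjusted p = 0.0486) and under quantile normalization (0.0418). Hoxc5 stood at -1.68 ± 0.62 (0.0913), Hoxc10 at -1.91 ± 0.94 (0.189) and Hoxc8 at -1.90 ± 1.49 (0.407). The missing calls do not show that levels were equal, since the lone fibroblast array leaves wide errors. Under a common median for all arrays the median difference of all genes moved by -0.37, and 2 members were called, Hoxb9 and Hoxc5. Of the 8 fibroblast marker genes, 4 were called lower in the same comparison.

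**Figure D2:**
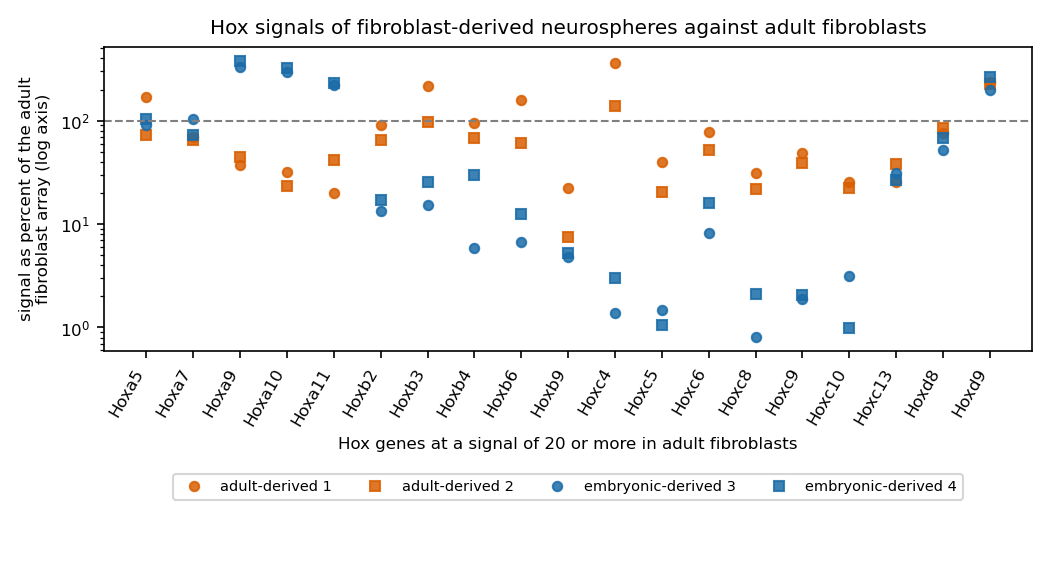
Signals of the 19 Hox genes that read 20 or more in adult fibroblasts, on each of the 4 fibroblast-derived arrays, as a percentage of the fibroblast array (log axis; dashed line, 100%). Hoxc4 to Hoxc10 stand between 20.3% and 360.5% on the adult-derived and between 0.801% and 16.1% on the embryonic-derived arrays, while Hoxd8 stands between 52.1% and 84.2% and Hoxd9 between 200.3% and 262.8% on all 4.

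Neurospheres derived from embryonic fibroblasts carried a different part of the clusters, the posterior ends of Hoxa and Hoxd, and no Hoxc gene at a signal of 20 or more. Hoxd13, which acts in the digits and the genital region, read 124.3 and 186.6 on embryonic-derived replicates 3 and 4, and 12.9 and 7.6 on the adult-derived arrays. On the other 8 arrays it lay between 0.7 and 11.4. Hoxd10 read 74.4 and 122.3 against 7.4 and 0.2 in the adult-derived pair. Hoxd11, which did not reach the filter, read 17.7 and 19.1 against 0.8 and 4.7, and Hoxd12 8.6 and 7.6 against 0.9 and 0.7. The posterior Hoxa genes followed the same order. Hoxa9 read 511.0 and 588.4 against 57.3 and 69.0, Hoxa10 286.5 and 314.6 against 30.8 and 22.6, and Hoxa11 47.5 and 50.1 against 4.3 and 9.0. In each of these 7 genes the pairs did not overlap. They were named because they read higher in the embryonic-derived pair, so this adds no support. Among all genes that passed the filter, which Hoxd11 and Hoxd12 did not, the pairs did not overlap in 55.5%. Hoxa13, beyond Hoxa11 in the cluster, stayed at 5.1 and 12.9.

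Genes that read lower in the embryonic- than in the adult-derived pair included members of Hoxc and of the anterior and central Hoxb. Hoxc8 read 7.0 and 18.4, Hoxc4 1.0 and 2.2, Hoxc5 1.8 and 1.3, Hoxc9 3.1 and 3.4 and Hoxc10 4.2 and 1.3. Hoxb3, an anterior gene of hindbrain levels, read 13.2 and 21.9, Hoxb2 17.9 and 22.7, Hoxb4 3.6 and 18.0 and Hoxb6 2.1 and 3.9. Hoxd8 (112.7 and 145.7), Hoxd9 (63.5 and 83.3) and Hoxa5 (36.5 and 40.9) were detected on all 4 fibroblast-derived arrays.

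In the test of embryonic minus adult fibroblast-derived neurospheres, 2 of 27 members were called, 7.41% beside 0.47% of all genes (0.404% higher and 0.066% lower). Hoxd13 was higher by 3.39 ± 0.48 (adjusted p = 0.0345) and Hoxb3 lower, at -2.55 ± 0.42 (adjusted p = 0.0498). At an unadjusted p under 0.05 there were 15. The pairs did not overlap in 23 of the 33 members (69.7%), 9 higher and 14 lower. The share was 55.5% of the 13627 genes that passed the filter, which not all members did. Members that missed the threshold with large differences were Hoxc4 at -4.67 ± 1.03 (adjusted p = 0.129), Hoxc8 at -3.81 ± 1.21 (0.272), Hoxd10 at 3.65 ± 0.81 (0.129) and Hoxa10 at 3.28 ± 0.70 (0.119). With the replicate block, Hoxc4 was called (adjusted p = 0.0376) and Hoxb3 was not (0.0566). In a fit of only these 4 arrays the calls were Hoxa9 and Hoxa10.

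The call of Hoxb3 held in 4 of 22 alternatives and that of Hoxd13 in 10 of 22, with the sign the same in all. Many alternatives, such as leaving out an array of another group, could change only the error and the call, not the difference or its sign. Without 1 of the 4 arrays compared, the difference lay between 3.11 and 3.67 for Hoxd13 and between -3.11 and -1.99 for Hoxb3. Over the 22 alternatives the adjusted p ranged from 0.00543 to 0.211 and from 0.0423 to 0.268. Neither gene was called without adult-derived replicate 1, either embryonic-derived array, either pluripotent array or either secondary array. Without either pluripotent array, other members were called in their place. Hoxb3 alone was called without adult-derived replicate 2, and Hoxd13 alone without the fibroblast array or either primary array. The media differed between the pairs, and the part of the medium was not tested. LIF alone was given to adult-derived replicate 2 and embryonic-derived replicate 3, 1 array on each side. On those, Hoxd13 read 7.6 and 124.3, Hoxb3 82.6 and 13.2, Hoxc8 192.4 and 7.0 and Hoxa10 22.6 and 286.5. These genes were named because they differed between the pairs. The second probe set of Hoxd13 read 6.0 and 5.3 against 5.0 and 2.2, and that of Hoxa10 7.4 and 6.0 against 4.3 and 2.8, all low. The second probe set of Hoxb3 gave 7.8 and 2.1 against 44.2 and 18.9. The placental genes, at 1613 and 787 against 13 and 22 in sum, moved with the same contrast, as did a set of 6 blood and microglial genes (2051 and 456 against 294 and 233) and the 6 pluripotency genes (6267 and 6431 against 2431 and 3637), and their part was not tested.

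**Figure D3:**
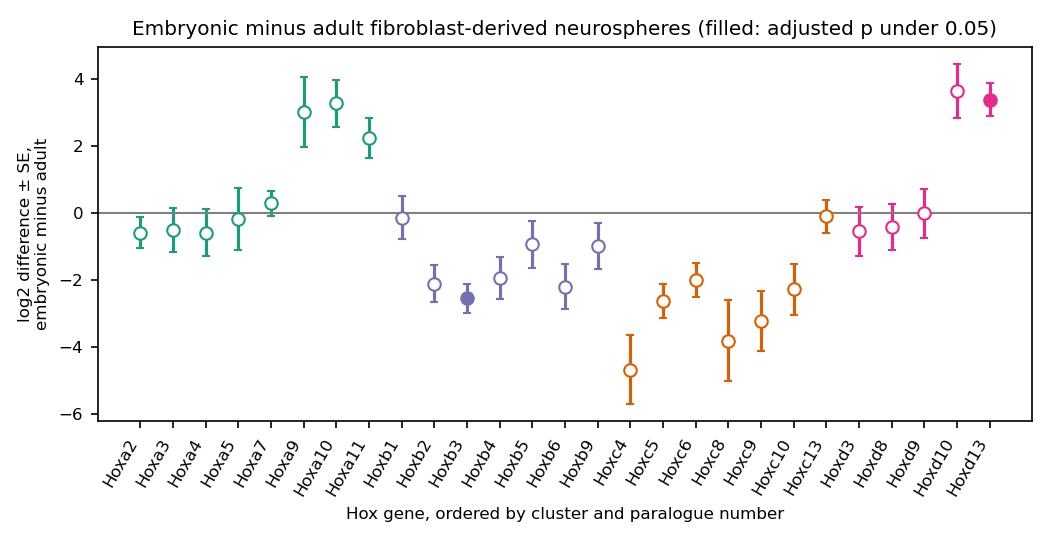
Log2 difference with its SE (error bars) between embryonic and adult fibroblast-derived neurospheres (2 arrays each) for the 27 tested Hox genes, coloured by cluster and ordered by paralogue number; filled points passed an adjusted p under 0.05. Hoxd13 and Hoxb3 are filled; Hoxa9 to Hoxa11, Hoxd10 and Hoxd13 lie at 2.24 or more and Hoxc4 to Hoxc10 at -1.99 or less.

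Neurospheres from pluripotent cells carried anterior Hox genes. Hoxb3 read 5.3 in iPS and 4.4 in ES cells, 929.0 and 628.9 in their primary neurospheres and 452.1 and 656.6 in their secondary neurospheres. Hoxb2, a hindbrain gene, read 18.9 and 1.2, then 436.2 and 335.5, then 207.9 and 249.2. Hoxa2, which acts in the hindbrain and in neural crest of the face, read 7.9 and 0.7, then 171.3 and 99.6, then 71.3 and 79.8. In all 3 the primary arrays lay above both pluripotent arrays. Primary and pluripotent arrays did not overlap in 39.4% of all measured members, beside 64.5% of the genes that passed the filter. Hoxa3 read 191.2 and 90.4 in primary and 93.2 and 81.5 in secondary neurospheres, against 32.3 and 4.7. Hoxb4 read 231.8 and 80.6, then 67.4 and 128.7, against 17.7 and 10.2, and Hoxb5 72.8 and 64.5, then 43.5 and 186.2, against 1.5 and 1.0. Hoxb1, the first gene of its cluster, was detected on 1 array only, the ES-derived primary one (66.9).

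Against the pluripotent cells, 8 of 27 tested members rose in primary neurospheres and 0 fell. The share was 29.6%, beside 30.2% of all genes called, 19.3% higher and 10.8% lower. Of the 10 anterior members 6 rose, of the 9 central ones 2 (Hoxb5 and Hoxc5), and of the 14 posterior ones 0. Hoxb3 rose by 6.29 ± 0.42 on the log2 scale (adjusted p = 0.000131), Hoxb2 by 4.99 ± 0.55 (0.000652), Hoxa2 by 3.99 ± 0.47 (0.000821) and Hoxb5 by 3.56 ± 0.71 (0.00762). Hoxb4, at 2.94 ± 0.62, Hoxa3, at 2.85 ± 0.65, Hoxd3, at 2.72 ± 0.74, and Hoxc5, at 1.54 ± 0.51, completed the calls. Hoxd3 read 154.0 on the iPS-derived and 17.6 on the ES-derived primary array, and without the iPS-derived one the count of calls was 5. Without the ES cells 7 members were called, among them Hoxa10, Hoxa11 and Hoxc13, which read higher in iPS cells than in primary neurospheres. Hoxc4 went from 61.4 to 370.8 in the iPS line and from 8.2 to 39.7 in the ES line and was not called (2.13 ± 1.03, adjusted p = 0.149). With the line as a block, 12 members were called, a fit to which the shares above do not apply.

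No member was called between secondary and primary neurospheres, beside 2.79% of all genes (2.0% higher and 0.793% lower), and 3 had an unadjusted p under 0.05. Hoxb6 read 37.7 and 164.8 in secondary against 12 and 25.3 in primary neurospheres (1.91 ± 0.68, adjusted p = 0.161). Hoxd3 read 15.4 and 14.2 against 154.0 and 17.6 (-1.60 ± 0.74, 0.268) and was called when the ES-derived primary array was left out (-3.01 ± 0.38, adjusted p = 0.0173). Hoxa2 stood at -0.76 ± 0.47 (0.411) and Hoxa5 at 0.88 ± 0.92 (0.646). With the replicate block the count remained 0.

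Set against GE neurospheres, 5 members were higher in secondary neurospheres and none lower. This is 18.5% of the 27 tested, beside 3.9% of all genes, 2.4% higher and 1.5% lower. Hoxb3, at 452.1 and 656.6 against 5.7, differed by 5.68 ± 0.52 (adjusted p = 0.00288). Hoxb2 was at 207.9 and 249.2 against 7.4 (4.23 ± 0.67, 0.0161) and Hoxa2 at 71.3 and 79.8 against 1.7 (3.59 ± 0.58, 0.0161). Hoxb5 was at 43.5 and 186.2 against 0.4 (4.16 ± 0.87, 0.0386) and Hoxa3 at 93.2 and 81.5 against 2.6 (3.6 ± 0.80, 0.0471). Of the 5, 4 are anterior and 1 central. The GE neurospheres were on 1 array. Without the ES-derived secondary array 1 member was called, Hoxb3, without the iPS-derived one 3, and 3 without either of the embryonic-derived arrays, which enter only through the shared spread. In a fit of only these 3 arrays 0 were called. Of the forebrain markers tested, Lhx2 stood at 29.1 and 34.9 against 282.0 and Six3 at 9.7 and 20.8 against 207.5, while Dlx1 stood at 38.9 and 54.5 against 0.4 and Dlx2 at 52.4 and 41.8 against 15.5. Of the 6 forebrain markers tested, 1 was called higher and 3 lower in secondary neurospheres. The midbrain and hindbrain gene En2 stood at 261.2 and 466.3 against 12.6, and read 86.4 in iPS and 49.3 in ES cells. Of the same marker list, En1 stood at 111.5 and 124.3 against 4.4, Irx3 at 182.0 and 137.7 against 11.3 and Gbx2 at 20.4 and 15.3 against 9.5. Egr2 lay on both sides, at 7.8 and 37.4 against 29.5, and Pax7 was low, at 0.7 and 0.6 against 0.3.

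**Figure D4:**
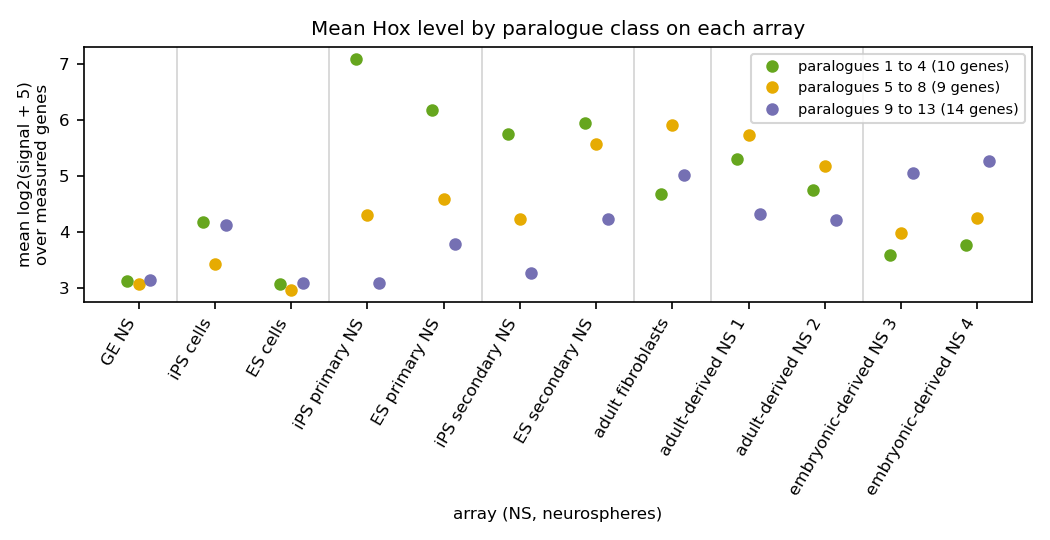
Mean log2(signal + 5) over the measured Hox genes of paralogue groups 1 to 4, 5 to 8 and 9 to 13 on each array. The anterior mean lies between 5.75 and 7.10 on the 4 pluripotent-derived neurosphere arrays and at most 5.30 elsewhere, and the posterior mean reaches 5.06 and 5.28 in the embryonic-derived pair; classes hold different probe sets, so their order within an array has no meaning.

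By paralogue class, the mean log2(signal + 5) of the 10 anterior genes was 7.10 and 6.19 in primary and 5.75 and 5.96 in secondary neurospheres. The same mean was 3.12 in GE neurospheres, 4.68 in fibroblasts, 5.30 and 4.76 in the adult-derived and 3.59 and 3.77 in the embryonic-derived pair. The 14 posterior genes had a mean of 3.09 and 3.8 in primary and 3.27 and 4.24 in secondary neurospheres. Their mean was 4.33 and 4.21 in the adult-derived and 5.06 and 5.28 in the embryonic-derived pair, and 5.02 in fibroblasts. For the 9 central genes the mean was 5.92 in fibroblasts, 5.73 and 5.18 in the adult-derived and 3.98 and 4.25 in the embryonic-derived pair. It was 4.32 and 4.59 in primary and 4.24 and 5.57 in secondary neurospheres, where the higher value was on the ES-derived array. The anterior class was thus lowest in GE neurospheres and ES cells (3.08), and the posterior class had similar means in fibroblasts and in the embryonic-derived pair while its single genes differed.

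The mean of the adult- and embryonic-derived pairs differed from the pluripotent-derived secondary neurospheres in both directions. Of 27 members 4 were higher and 7 lower, 40.7% beside 33.7% of all genes (17.0% higher and 16.7% lower). Those lower were anterior or early central genes, Hoxb3 (-3.36 ± 0.37, adjusted p = 0.000369), Hoxa2 (-2.53 ± 0.41, 0.00229), Hoxb5 (-3.12 ± 0.61, 0.00574), Hoxb2, Hoxb6, Hoxa3 and Hoxb4. Those higher were Hoxd13 (2.97 ± 0.42, 0.0012), Hoxd8 (2.88 ± 0.59, 0.00718), Hoxd9 (2.46 ± 0.63, 0.0182) and Hoxa10. The arrays of the sides overlapped for Hoxb6 and Hoxa10. Without the iPS-derived secondary array 5 members were called, and without the ES-derived one 6. For each pair alone, an alternative chosen after seeing the data, 7 were called in the adult-derived (4 higher, 3 lower, beside 23.2% of all genes, 10.7% higher and 12.5% lower) and 14 in the embryonic-derived pair (6 higher, 8 lower, beside 29.1%, 15% higher and 14.2% lower). Both comparisons share the secondary arrays. For the adult-derived pair, those higher were Hoxd8 (3.09 ± 0.69), Hoxd9 (2.47 ± 0.73), Hoxc5 (1.90 ± 0.51) and Hoxc6 (1.74 ± 0.51), and those lower Hoxa2, Hoxb3 and Hoxb5. For the embryonic-derived pair, those higher were Hoxd13 (4.67 ± 0.48), Hoxa10 (3.54 ± 0.70), Hoxd8, Hoxd9, Hoxa11 and Hoxd10. Hoxc4 was lower in the embryonic-derived pair (-3.63 ± 1.03, adjusted p = 0.03).

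Against the pluripotent cells, 8 of 27 members were higher in the fibroblast-derived neurospheres and 0 lower, 29.6% beside 30.2% of all genes called, 20.4% higher and 9.79% lower. These were Hoxb3 (2.44 ± 0.37, adjusted p = 0.00244), Hoxd8 (3.32 ± 0.59, 0.00499), Hoxa7 (1.72 ± 0.32, 0.00593), Hoxd9 (3.32 ± 0.63, 0.00653), Hoxb2, Hoxd13, Hoxc6 and Hoxa10, the last 4 with overlapping arrays. Without embryonic-derived replicate 4 the count was 5, and without the ES cells 5. The adult-derived pair alone had 11 called, all higher (beside 21.5%, 15% higher and 6.42% lower), 5 of them in Hoxc, with Hoxc8 at 4.79 ± 1.21 (adjusted p = 0.0264). The embryonic-derived pair alone had 7, all higher (beside 24.9%, 17.4% higher and 7.43% lower), Hoxd13 (3.37 ± 0.48, 0.00257), Hoxa10, Hoxa7, Hoxd10, Hoxd9, Hoxd8 and Hoxa9, and none in Hoxb or Hoxc. For Hoxd13 the adult-derived pair alone gave -0.023. The comparisons of the pairs share the pluripotent arrays.

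Compared with GE neurospheres the count was also 8 higher and 0 lower, 29.6% beside 28.5% of all genes called, 15.7% higher and 12.8% lower. Hoxd13 (3.09 ± 0.54, adjusted p = 0.00403), Hoxb3 (2.32 ± 0.47, 0.00787), Hoxd8 (3.69 ± 0.77, 0.00857) and Hoxd9 (3.72 ± 0.82, 0.0107) led, followed by Hoxa10, Hoxa7, Hoxa9 and Hoxb2. In a fit of only the groups compared 14 were called, a fit to which the shares above do not apply. For the pairs alone the counts were 9, of which 4 in Hoxc, for the adult-derived (beside 23.6%, 12.5% higher and 11.1% lower) and 7, with 0 in Hoxc, for the embryonic-derived pair (beside 26.2%, 14.6% higher and 11.6% lower), all of them higher.

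**Figure D5:**
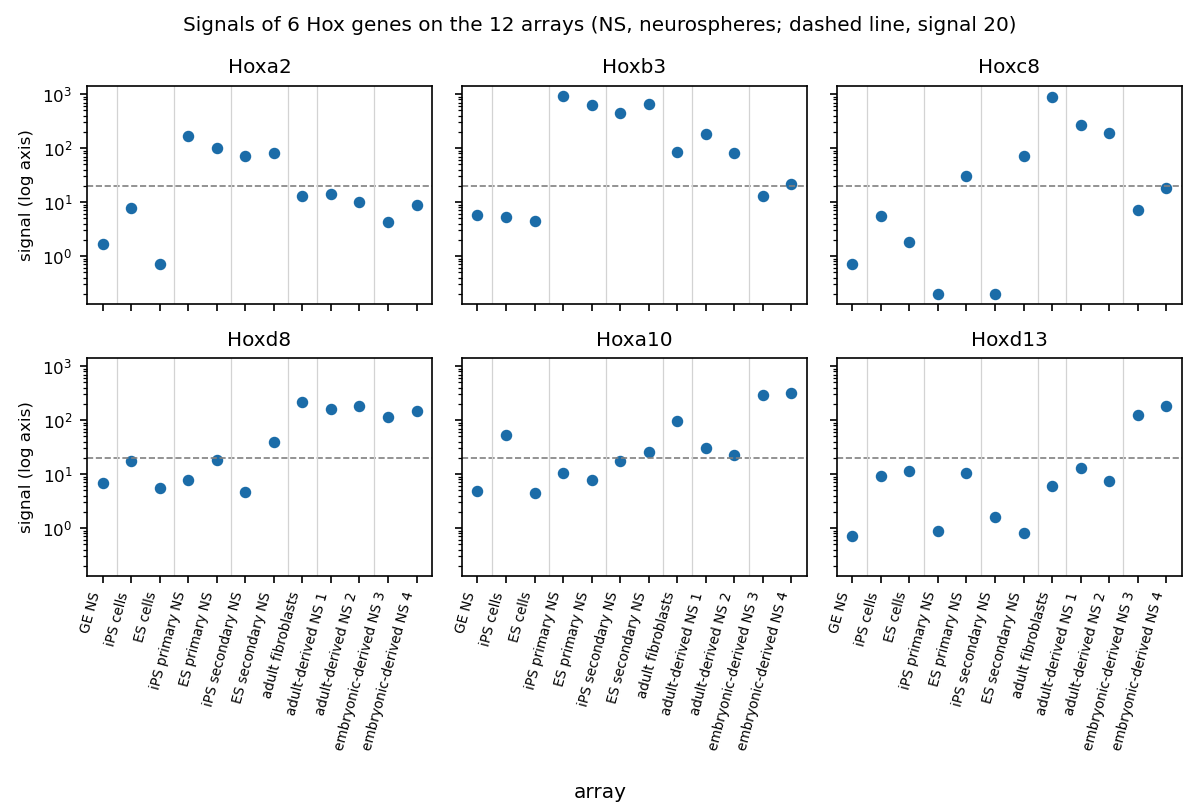
Signals (log axis) of Hoxa2, Hoxb3, Hoxc8, Hoxd8, Hoxa10 and Hoxd13 on each of the 12 arrays, with a dashed line at 20. Hoxa2 stands between 71.3 and 171.3 on the 4 pluripotent-derived neurosphere arrays and at most at 14.3 elsewhere, Hoxc8 is highest in adult fibroblasts (873.4), Hoxd8 is above 100 on the fibroblast and all 4 fibroblast-derived arrays, and Hoxd13 exceeds 20 only in the embryonic-derived pair.

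Some single arrays carried members at higher levels than their pair mates. On the iPS array 8 members were detected, among them Hoxa9 at 145.3, Hoxc4 at 61.4, Hoxa10 at 52.8, Hoxa5 at 46.5 and Hoxa11 at 36.3, while the ES array read 5.1, 8.2, 4.4, 0.3 and 6.9 for these genes. The summed signal of 8 fibroblast genes was 306 on the iPS and 77 on the ES array, and that of 6 pluripotency genes 13826 and 13561. The ES-derived secondary array read above the iPS-derived one in several members. Hoxc8 read 70.3 against 0.2, Hoxc9 39.7 against 3.1, Hoxc10 32.0 against 2.2, Hoxd8 40.1 against 4.6 and Hoxd10 34.5 against 2.5. Hoxb6, detected on both, read 164.8 against 37.7. Fibroblast genes were also higher there, with Col1a2 at 1453.7 against 90.8 and Dcn at 1417.4 against 365.7. Their part in these Hox signals was not tested. The ES-derived primary array, with the fibroblast sum at 371, read 30.6 for Hoxc8 and 27.1 for Hoxc9. The iPS-derived primary array, with that sum at 174, read 0.2 and 1.1. The line and the array cannot be told apart, with 1 array per line and stage.

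Across the 33 genes, log2 profiles of 2 arrays correlated to different degrees. The fibroblast array correlated with the adult-derived arrays at a Pearson r of 0.84 and 0.85 and with the embryonic-derived ones at 0.16 and 0.20. Over all 13627 genes tested the same values lay between 0.79 and 0.81. Adult-derived replicate 1 and embryonic-derived replicate 3 correlated at 0.09 over the Hox genes and 0.92 over all genes. Adult-derived replicate 1 correlated with the ES-derived secondary array at 0.71 and the fibroblast array with it at 0.49, while the embryonic-derived arrays correlated with the iPS cells at 0.51 and 0.48. Within pairs, r over the Hox genes was 0.90 (adult-derived), 0.96 (embryonic-derived), 0.82 (primary), 0.82 (secondary) and 0.33 (iPS and ES cells). These values describe the arrays, since genes share clusters and probe brightness and are not independent, and they were not tested.

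The other genes of the pathway were taken as fixed lists. Of 11 TALE cofactors, 10 were measured. In primary neurospheres 6 rose and 1 fell against pluripotent cells, beside 19.3% and 10.8% of all genes. Meis2 rose from 18.7 and 14 to 1508.7 and 1074.1 (5.91 ± 0.35, adjusted p = 0.00011), Meis1 from 13.8 and 0.7 to 637.2 and 366.7 (5.56 ± 0.52, 0.000354), Pbx3 by 3.08 ± 0.46 (0.00223) and Pknox2 by 3.01 ± 0.28 (0.00035). The fibroblast-derived arrays held Meis1 between 46.8 and 79.5 and Meis2 between 225.1 and 300.4, close to each other across the pairs. Against secondary neurospheres Meis1 (-2.78 ± 0.45, adjusted p = 0.0024), Pknox2 (-1.97 ± 0.24) and Meis2 (-1.11 ± 0.30) were lower and Tgif1 (1.87 ± 0.47) was higher. GE neurospheres, with 1 detected Hox gene, carried Meis1 at 143.8, Meis2 at 739.1 and Pbx3 at 314.2. No TALE cofactor was called between the fibroblast-derived pairs, beside 0.47% of all genes.

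A further list of 7 held caudal and ParaHox genes and also Gbx2, and 3 were tested, Cdx2, Gsx1 and Gbx2. The caudal (Cdx) genes, which drive central and posterior Hox genes in the embryo, were low on every array. Cdx1 and Cdx4 did not exceed 13.8, and Cdx2 exceeded 20 on 1 array, the ES-derived primary one (30.0). Of the cluster non-coding RNAs, 3 of 13 were measured. Hoxa11os, the antisense RNA of Hoxa11, read 136.6 and 152.0 in the embryonic-derived pair and at most 18.9 elsewhere. It was higher than in the adult-derived pair by 4.59 ± 0.66 (adjusted p = 0.0345). Hoxb5os read 295.6 on the ES-derived secondary and 77.2 on the ES-derived primary array, against 26.3 and 14.6 in the iPS line. Hoxd3os1 read between 20.5 and 35.9 on the 4 fibroblast-derived arrays, and was higher there than in pluripotent cells by 2.07 ± 0.44 (adjusted p = 0.0103).

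Of 20 genes that flank the clusters, 18 were measured and 17 tested. Between the embryonic- and adult-derived pairs 0 of the 17 were called, beside 0.47% of all genes. Between secondary and GE neurospheres 0 were higher and 1, Nfe2l3, lower, beside 2.4% and 1.5% of all genes. Primary neurospheres had 0 higher and 3 lower than pluripotent cells, beside 19.3% and 10.8%. These were Skap2 (-1.40 ± 0.25, adjusted p = 0.00522), Hibadh and Ttll6. Evx1, a homeobox gene beyond Hoxa13, read at most 42.1 on any array, and Evx2, beyond Hoxd13, at most 21.3, including 17.0 and 18.4 in the embryonic-derived pair.

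Of 19 Trithorax and Polycomb genes 18 were tested. Adult-derived neurospheres had 5 higher than fibroblasts and 0 lower, among them Jarid2 (4.10 ± 0.46, adjusted p = 0.00166), Phc1 (3.49 ± 0.35) and the H3K27 methyltransferase Ezh2 (2.73 ± 0.28, 0.00125). The background was 12.3% of all genes higher and 7.25% lower. Ezh2 read 789.0 and 774.6 there, 644.9 and 635.3 in the embryonic-derived pair and 113.8 in fibroblasts. Primary neurospheres had 4 higher and 4 lower than pluripotent cells, beside 19.3% and 10.8% of all genes. The Polycomb gene Bmi1 was higher (3.45 ± 0.36, 0.000541) and Phc1 lower (-1.77 ± 0.29). None was called between the fibroblast-derived pairs, beside 0.47% of all genes, or between secondary and GE neurospheres, beside 3.9%.

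Genes of retinoic acid response and metabolism numbered 12 tested of 14. In primary neurospheres 4 rose against pluripotent cells and 0 fell, beside 30.2% of all genes called (19.3% higher and 10.8% lower). Rarb, a retinoic acid receptor that is itself a retinoic acid target, went from 5.8 and 2.4 to 93.7 and 53.6 (3.09 ± 0.61, adjusted p = 0.00731), and Cyp26b1, which degrades retinoic acid, from 6.8 and 9.1 to 397.8 and 301.2 (4.77 ± 0.53, 0.000652). Crabp1 and Crabp2, retinoic acid binding proteins, rose by 3.97 ± 0.70 and 4.66 ± 0.75. Both were lower again in secondary neurospheres, Crabp1 at 95.2 and 74.2 against 2379.4 and 3020.3 (-4.91 ± 0.70, adjusted p = 0.0157) and Crabp2 at -6.42 ± 0.75 (0.00809), a step at which no Hox gene was called. On the fibroblast-derived arrays Crabp2 read between 1031.1 and 1607.9, against 33.9 in fibroblasts, and Aldh1a3, which makes retinoic acid, between 101.5 and 216.8 against 11. In the adult-derived pair both were higher than in fibroblasts (5.05 ± 0.92, adjusted p = 0.008, and 2.99 ± 0.73, 0.0234).

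Genes of body position outside the Hox clusters were followed as markers. Tbx15, of trunk and limb mesenchyme, read 437.8 in fibroblasts, 303.6 and 207.2 in the adult-derived and 185.5 and 162.5 in the embryonic-derived pair, and at most 48.6 elsewhere. The hindlimb gene Tbx4 read 96.3 and 75.3 in the embryonic-derived pair, against 11.7 and 27 in the adult-derived pair and 3.7 in fibroblasts. Pitx1, another hindlimb gene, did not exceed 12.9 on any array. Shox2 read 925.1 in fibroblasts and between 17.9 and 54.2 on the fibroblast-derived arrays. Between the fibroblast-derived pairs none of the 8 positional genes tested was called, beside 0.47% of all genes.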

How the data were processed

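Signals of 12 arrays were analysed as deposited. They are intensities on a linear scale, made by the authors with MAS5 in version 1.1 of Affymetrix Expression Console, as the submitters' processing notes record. From the values, the mean after trimming 2% at each end was 100 on every array. The files used here give no detection calls, so a signal of 20 or more was taken as detected. Of 45101 probe sets, 64 were controls, 34945 had 1 symbol in the platform annotation, 932 had several and 9160 had none. The scale, log2(signal + 5), and a filter of 20 on at least 1 array left 13627 genes.

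Groups came from the labels. Comparisons used limma 3.58.1, run under R 4.3.3 (lmFit, then eBayes with a trend on intensity; 2-sided tests), in a single fit of 7 group means, with 5 degrees of freedom from residuals and 3.63 from the prior. A gene was called where its p, adjusted by Benjamini-Hochberg across every gene tested, was under 0.05. Where all 4 fibroblast-derived arrays were used, each pair had equal weight. Per comparison, differences were given for at most 8 called members of smallest adjusted p and 4 uncalled members of largest difference with a signal of 100 or more, and for at most 4 called genes of a list. All members could be named by signal. Hoxa11os, Hoxb5os and Hoxd3os1 and the pairs alone followed the same rule. Members, lists and tests were chosen with earlier results of these data known, and each pair alone was added after seeing the data. Coordinates and upstream sequences are RefSeq's on GRCm38.p6; the 50 bases after each start were left out.

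The iPS and ES lines pair the arrays, since the same number marks the same cell line. Same-line deviations from group means correlated at 0.252 (cells with primary), 0.0585 (cells with secondary) and 0.425 (primary with secondary). The alternatives tried were pseudocounts of 1 and 20, quantile normalization, a common median, no filter and a filter at 100, the mean of probe sets, eBayes without a trend, the line as replicate block, only the groups compared, and each array left out. For RNA quality, 3′ over 5′ control signals were 1.25 to 1.52 (Actb) and 0.709 to 0.897 (Gapdh).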

Additional observations from a re-analysis of the deposited data

Results flagged for a closer look

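Both called differences between the embryonic and adult fibroblast-derived neurospheres stand out, because the test of the difference between these pairs itself passed. Hoxd13 differed by 3.39 on the log2 scale, reading 124.3 and 186.6 in the embryonic-derived and 12.9 and 7.6 in the adult-derived pair. Hoxb3 differed by -2.55, reading 13.2 and 21.9 against 185.8 and 82.6. Both were picked by this same test, so the separation of their arrays adds no support. The call was lost in 12 of 22 alternatives for Hoxd13 and in 18 of 22 for Hoxb3. The second probe set of Hoxd13 was low, at 6.0 and 5.3 in the embryonic-derived and 5.0 and 2.2 in the adult-derived pair. The pairs also differ in medium.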

How the results depend on the processing

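Counts of called Hox genes are given as reported, then where they moved. The shares of all genes given above belong to the main fit and do not apply to counts from other fits. For adult-derived neurospheres against fibroblasts (0) the count was 1 under quantile normalization, 2 with a common median, 3 with a pseudocount of 20, 1 with the replicate block and 1 with only the groups compared. For embryonic against adult-derived (2) it was 1 under quantile normalization, 0 with a pseudocount of 1, 1 without a filter, 0 with a filter at 100 and 0 with the mean of probe sets. For fibroblast-derived against pluripotent cells (8) it was 5 with a filter at 100, against GE neurospheres (8) it was 14 with only the groups compared, and against secondary neurospheres (11) it was 7 with the adult-derived pair alone. For primary against pluripotent (8) it was 5 and for secondary against GE neurospheres (5) 0 with only the groups compared. With each array left out in turn, these counts ranged, in the same order, from 0 to 1, 0 to 2, 5 to 11, 7 to 10, 5 to 14, 5 to 10 and 1 to 6. They ranged from 0 to 1 for secondary against primary and from 9 to 15 for fibroblasts against pluripotent cells.

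Called differences of single members kept sign and call in 926 of 1052 values under alternatives. Alternatives that change neither the values nor the arrays compared could alter a call but not a sign. They lost the call in 125 and reversed in 1, Hoxd13 of the adult-derived pair alone against pluripotent cells (-0.023). Reversals of uncalled members were Hoxc4 against pluripotent cells (-0.080 under quantile normalization, -0.11 with a common median, -0.24 with a pseudocount of 1, -0.17 without adult-derived replicate 1, from -1.003 to 1.33 over all arrays left out in turn, the lowest without the ES cells, -2.17 for the embryonic-derived pair alone) and against secondary neurospheres (1.04 for the adult-derived pair alone). Others were Hoxc8 against secondary neurospheres (from -0.26, without the iPS-derived array, to 3.59 over arrays left out, -0.24 for the embryonic-derived pair alone), Hoxa9 against the same (-0.20 for the adult-derived pair alone) and Hoxa9 in primary against pluripotent cells (from -1.36, without ES cells, to 2.53 over arrays left out, and -0.05 without the iPS-derived primary array). The cause was not tested, beyond the fewer samples or genes that some alternatives hold. Other passing probe sets of called members had the same sign in 42 of 42 cases. These cases are not independent, since they repeat a few probe sets over comparisons that share arrays. Probe sets below 20 on all arrays, such as the second ones of Hoxd13 and Hoxa10, were not counted. At times the difference was far smaller. Against GE neurospheres, Hoxb3 went from 2.32 to 0.064 and Hoxa9 from 4.60 to 0.67 in fibroblast-derived neurospheres. Hoxb3 went from 5.68 to 2.49 in secondary neurospheres. The other probe set of Hoxa9, where not called, had the opposite sign in 3 comparisons. With the replicate block the counts were 12, 12 and 11 for fibroblast-derived against pluripotent, GE and secondary neurospheres, 12 for primary against pluripotent cells and 7 for secondary against GE. The block is balanced within each group, so it could change the errors and calls but not the differences.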

Other observations

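Probe sets annotated to 2 Hox genes at once were left out of the members and are given as values only. A probe set shared by Hoxb7 and Hoxb8 read 42.4 in adult fibroblasts. The adult-derived pair had 40.8 and 8.0, the embryonic-derived pair 0.4 and 5.4. In pluripotent-derived neurospheres it read 45.4 and 55.3 (primary) and 56.8 and 174.5 (secondary), against 7.3 in iPS cells, 5.1 in ES cells and 0.3 in GE neurospheres. One probe set shared by Hoxd3 and Hoxd4 read 106.4 on the iPS-derived primary array and at most 24.2 on the others. The other one read 34.8 and 19.3 in the adult-derived pair, 15.9 and 17.1 in the embryonic-derived pair and 20.1 on the iPS-derived primary array.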
